A study of Mus musculus with 11 samples.

Results

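This account concerns the 2 ends of the portal-central axis of the uninjured mouse liver, compared spot by spot within sections. The Visium assay captures polyadenylated RNA from frozen tissue with barcoded spots laid out as a grid. Because such a spot is larger than a hepatocyte, its counts come from a small group of neighbouring cells, often of more than 1 type. Of 11 liver sections in the series, the 3 labelled uninjured (0 h, replicates 2, 3 and 4) were used, and the other 8 were taken 24, 36 or 48 h after a liver injury with paracetamol (acetaminophen, APAP). The study's methods describe young adult mice, male unless a legend says otherwise, of the C57BL/6JCrl strain or of reporter lines, without saying which gave these sections. Injured mice were fasted and received APAP into the peritoneum, and the 0 h sections carry no treatment in their labels. Those methods give a single mouse per time point for this assay and the labels name none, so n counts sections and every p below covers only the spread between sections, possibly of a single animal.

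Spots were chosen by their own readout. Passing spots (under the tissue mask, at least 800 genes detected, at most 20% of UMIs from mitochondrial genes) were ranked within each section by a zone score, z, selected on the summed UMIs of 8 genes. It is the log2 of 1 plus the UMIs per 10000 of Cyp2e1, Oat, Cyp1a2 and Glul minus the same quantity for Cyp2f2, Hal, Sds and Hsd17b13. The top 20% of each section were called pericentral and the bottom 20% periportal. The classes held 2784 spots, 1392 of each, of 6956 passing spots in the 3 sections and 25136 in the whole series. Sections 2, 3 and 4 gave 388, 538 and 466 spots per class of 1937, 2690 and 2329, and class sums held between 9533853 and 17125612 UMIs.

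Blood enters the liver lobule beside the portal tract, where hepatic artery, portal vein and bile duct run together, and leaves by the central vein. Along this path hepatocytes divide their work. Cells near the portal tract are known for urea synthesis from ammonia, glucose production and secretion of plasma proteins, whereas cells around the central vein are known for drug oxidation by cytochromes P450, glutamine synthesis and bile acid synthesis. Wnt ligands and R-spondin from endothelium of the central vein keep β-catenin signalling on in the hepatocytes nearest to it.

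The 8 genes that defined z are given as a description, with no test. In the pericentral sums of sections 2, 3 and 4, Cyp2e1, the P450 that activates APAP, took 43.7, 42.0 and 33.8 UMIs per 10000, against 7.70, 7.0 and 4.79 in the periportal sums. Glul, glutamine synthetase, took 5.04, 4.55 and 4.59 against 0.695, 0.764 and 0.623. In the other direction Cyp2f2 took 3.96, 4.26 and 4.80 in the pericentral sums and 16.8, 17.5 and 18.8 in the periportal sums. Every one of the 8 genes was thus still present in the class where it was low, as a mixed spot allows. The cuts fell where the scores ran on without a gap. In section 2 the last pericentral spot had a z of 2.106 and the first spot outside 2.105, and the last periportal spot had -0.885 against -0.883 outside.

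Spots of a class lay together. Of the grid neighbours of pericentral spots, 52.1%, 50.6% and 44.2% in sections 2, 3 and 4 were pericentral themselves and 3.61%, 3.33% and 6.30% were periportal, where each class held 20% of spots. Of the neighbours of periportal spots, 57.1%, 52.0% and 50.2% were periportal. The median distance from a periportal spot to the nearest pericentral spot was 1.73 grid steps in each section. On the map of the classes, patches of both kinds alternate towards the left and lower parts of the sections, and a wide area in the middle and upper right of each holds few spots of either class.

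**Figure D1:**
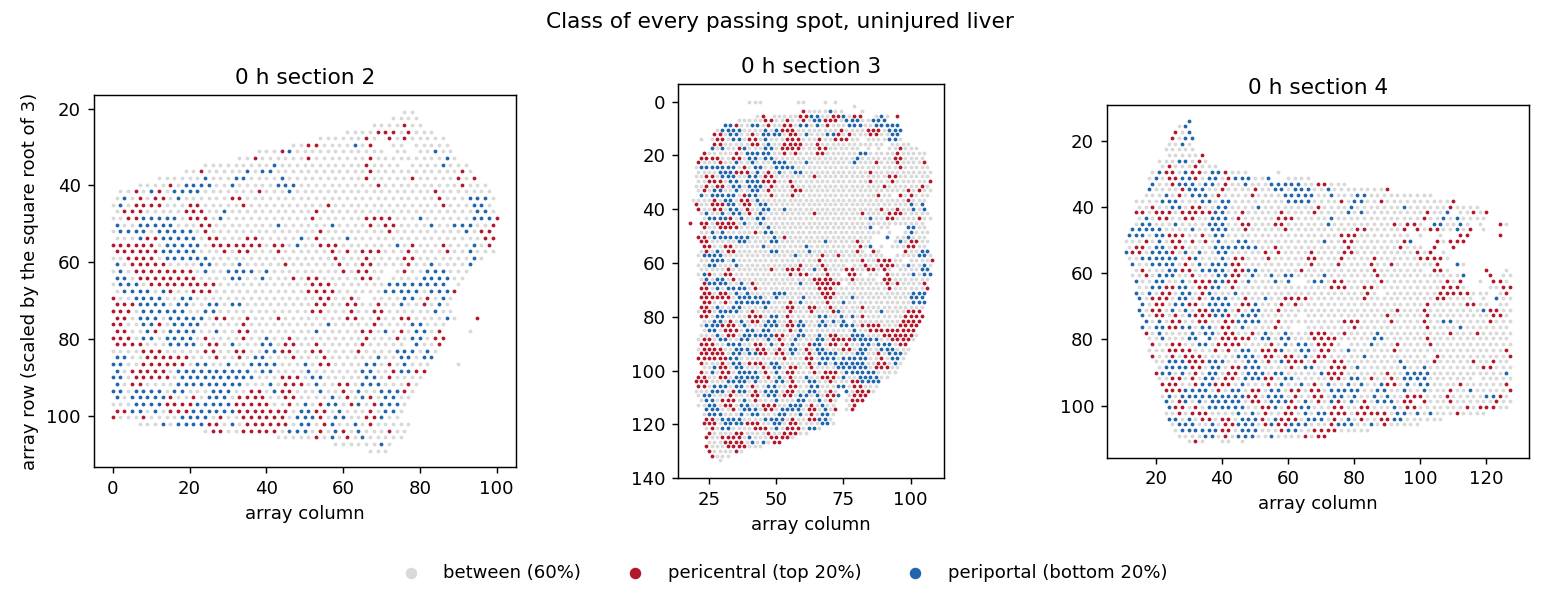
Class of each passing spot by array position (array column and scaled array row) in the 3 uninjured sections, with pericentral spots in red, periportal spots in blue and the other 60% in grey. Patches of both classes alternate over part of each section, and large grey areas hold few classed spots.

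Depth differed between the classes and the rest. Median UMIs per spot were 34483, 29970.5 and 22260.5 in pericentral spots, 38129.5, 33060 and 25170 in periportal spots, and 23175, 16752.5 and 16373 in the spots between them. The median mitochondrial share was 4.41%, 4.70% and 2.88% in pericentral, 3.71%, 3.85% and 2.12% in periportal and 8.63%, 9.06% and 6.92% in the remaining spots. In the lowest quartile of spots by UMIs, 77.9%, 77.5% and 78.4% belonged to neither class, and 4.96%, 5.95% and 3.61% were periportal. Periportal spots were thus scarce among the shallowest spots of each section. The part of depth in the comparison was examined by repeating it in spots at or above the section's median UMIs.

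The comparison asked which genes, apart from those 8, differed between the ends of the axis within a section. UMIs were summed per section and class, and edgeR's quasi-likelihood test with the section as a block was run on 11733 genes that passed a filter on low counts. Values below are log2 differences, pericentral minus periportal, with their standard error, and a gene was called at a Benjamini-Hochberg adjusted p under 0.05 over all genes tested. CPM is the UMI count scaled to a common depth with TMM factors, and 3 CPM values in a row are sections 2, 3 and 4. Called higher in pericentral spots were 1515 genes (12.9% of those tested) and in periportal spots 1587 (13.5%). Of these, 214 (1.82%) and 220 (1.88%) differed at least 2-fold. The 12.9% and 13.5% are the background for every list count below. The same direction was seen in all 3 sections for 1492 and 1559 of the called genes. With libraries scaled to their totals alone, 67.1% of calls were higher in pericentral spots, against 48.8% under TMM, and the median gene moved to 0.07.

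Among well-expressed genes, those highest over periportal spots were led by transporters and P450s. Slc13a3 (ENSMUSG00000018459, chr2:165405028-165473230, - strand in GRCm38), which carries dicarboxylates with sodium, lay at 17.7, 18.4 and 28.2 CPM in pericentral and 1.19, 1.89 and 3.02 CPM in periportal sums, a difference of 3.40 ± 0.13 (adjusted p = 1.23e-25). Slc1a2 (ENSMUSG00000005089, chr2:102658659-102790784, + strand), a glutamate transporter, lay at 94.4, 89.8 and 91.4 against 11.7, 11.1 and 9.23 CPM (3.09 ± 0.064, adjusted p = 3.28e-36). The classes were far apart in every section for both, and Slc1a2 hardly varied between sections. Cyp2a5 (ENSMUSG00000005547, chr7:26835305-26843548, + strand), the coumarin hydroxylase, lay at 295, 204 and 95.2 against 34.2, 23.0 and 8.96 CPM (3.17 ± 0.049). Its level fell well below that of section 2 in both classes of section 4, yet the log2 difference lay between 3.11 and 3.40 in every section. Lhpp, a phosphatase, lay at 64.0, 72.5 and 62.9 against 7.79, 9.15 and 7.81 CPM (3.01 ± 0.070).

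A block of Cyp2c genes on chromosome 19 stood beside them, P450s that oxidise drugs and fatty acids. Cyp2c69 differed by 2.96 ± 0.081, Cyp2c40 by 2.85 ± 0.052, Cyp2c37 by 2.78 ± 0.047 and Cyp2c38 by 2.64 ± 0.088. Across sections they did not move as one: pericentral Cyp2c40 was 88.0, 149.6 and 186 CPM and Cyp2c69 29.5, 50.9 and 72.3 CPM, both lowest in section 2, whereas Cyp2c38 was 46.3, 44.8 and 21.2 CPM and lowest in section 4. These genes, like Cyp2a5, have close copies whose reads can be exchanged, so a single member is less certain than the group. Serpina7, thyroxine-binding globulin, lay at 111, 85.5 and 38.5 against 14.6, 12.8 and 4.53 CPM (2.87 ± 0.066), and Fitm1, a protein of lipid droplet formation, at 132, 132 and 100.3 against 22.7, 21.9 and 13.8 CPM (2.63 ± 0.054). Mup17 (2.61 ± 0.083) and Aldh3a2, a fatty aldehyde dehydrogenase (2.49 ± 0.10, 194, 177 and 119.9 against 36.4, 34.8 and 15.6 CPM), completed the 12.

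At the periportal end the widest difference among well-expressed genes was that of Spp1 (ENSMUSG00000029304, chr5:104435118-104441050, + strand), osteopontin, a secreted protein abundant in bile duct cells. It lay at 7.84, 12.03 and 13.6 CPM in pericentral and 83.0, 81.7 and 109 CPM in periportal sums (-3.02 ± 0.076, adjusted p = 4.51e-21). Aldh1b1 (ENSMUSG00000035561, chr4:45799022-45804604, + strand), a mitochondrial aldehyde dehydrogenase, lay at 20.5, 19.0 and 17.5 against 155, 125 and 136 CPM (-2.86 ± 0.053). Both classes held narrow ranges over the sections for Aldh1b1, with no overlap. Cib3, a calcium-binding protein, lay at 4.48, 8.96 and 13.3 against 27.2, 38.2 and 78.0 CPM (-2.38 ± 0.085), and its level in section 4 exceeded that in section 2 in both classes. Hsd17b6, a retinol and steroid dehydrogenase, lay at 31.0, 56.4 and 28.4 against 169.6, 250.2 and 147 CPM (-2.29 ± 0.048). Mfsd2a, a transporter of lysophospholipids, differed by -2.22 ± 0.078 (6.96, 12.6 and 9.19 against 37.8, 53.8 and 43.3 CPM).

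Cdh1, E-cadherin, an adhesion protein of epithelia, lay at 9.77, 9.09 and 13.4 against 45.6, 42.1 and 60.6 CPM (-2.20 ± 0.073). Etnppl, which breaks down phosphoethanolamine, lay at 32.1, 37.3 and 27.4 against 151, 149 and 127 CPM (-2.13 ± 0.049). Each section kept the classes of these genes apart. The remaining 5 were Ugt2b38 (-2.12 ± 0.11), Ptgds, prostaglandin D synthase (-2.12 ± 0.11), Cryl1, a sugar dehydrogenase (-2.06 ± 0.071), Clec2h (-2.06 ± 0.10) and Slc3a1, a subunit of the cystine transporter (-1.92 ± 0.084). Ugt2b38 was uneven between sections, with 21.2, 16.6 and 45.7 CPM in periportal sums. The plot of these 24 genes by section shows both sets.

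**Figure D2:**
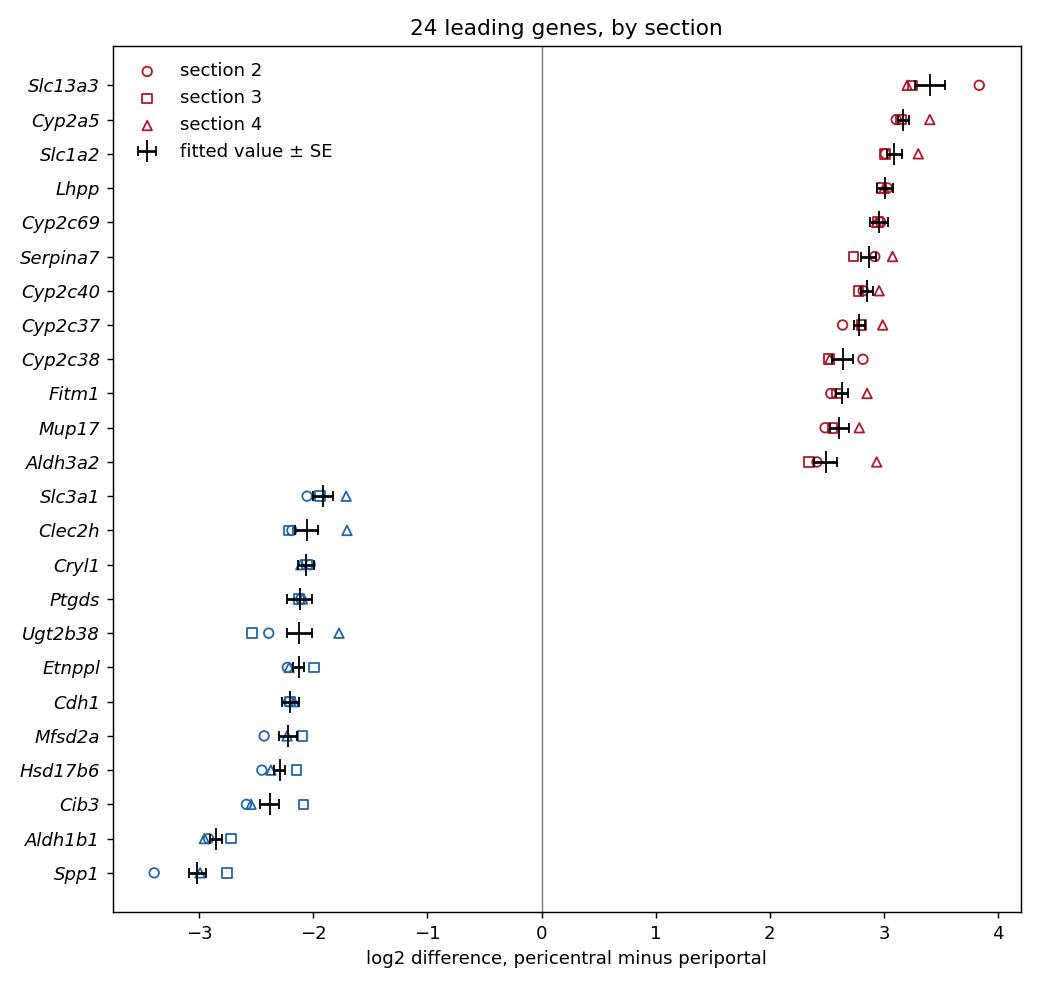
Log2 difference, pericentral minus periportal, of the 24 leading genes in each section (open symbols, red for genes higher in pericentral and blue for those higher in periportal spots), with the fitted value and its standard error in black. All 3 sections lie on the same side of 0 for each gene.

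How the 24 genes ran across the whole range of z was described by cutting each section into 5 bins of equal size, from 1 (periportal) to 5 (pericentral). For 10 of the 12 pericentral genes the largest step was the last, from bin 4 to bin 5, with a median of 1.03 on the log2 scale against 0.52 to 0.61 for the earlier steps. Slc1a2 lay at 10.4, 14.5, 18.3, 27.5 and 89.7 CPM in bins 1 to 5, so that bin 5 held over 3 times the level of bin 4. The 12 periportal genes declined in steps with medians of -0.52, -0.57, -0.41 and -0.62. The largest step was the last for 7 of them, between bins 2 and 3 for 3, and between bins 1 and 2 for 2, Mfsd2a and Aldh1b1. Aldh1b1 lay at 136, 67.7, 36.3, 29.2 and 18.5 CPM. Narrower classes stood further apart. With the outer 10% of spots the median difference was 3.22 for the pericentral and -2.50 for the periportal genes, with the outer 20% 2.86 and -2.17, and with the outer 33% 2.38 and -1.80. These bins share their spots with the comparison and are given without a test. The 24 genes were chosen for their difference between the end classes, so wider gaps in narrower classes were built into that choice. Bins hold equal numbers of spots and are not equal steps of z, whose medians were -1.43, -0.39, 0.61, 1.60 and 2.80 in section 2. Bins 2 to 4 were also shallower than the ends, with a higher mitochondrial share.

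**Figure D3:**
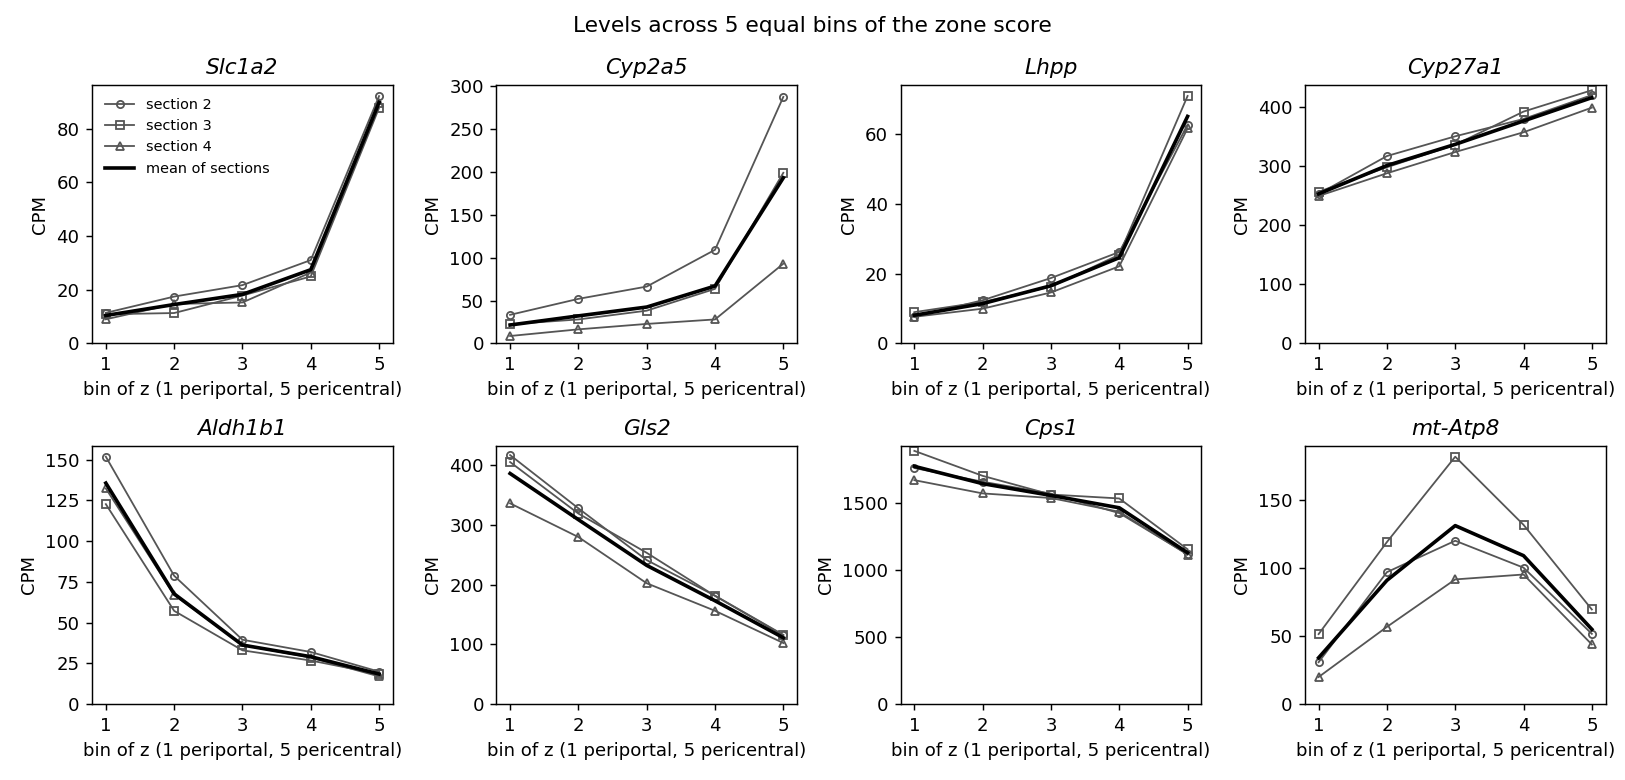
CPM of 8 genes in each bin of z (1 periportal, 5 pericentral), per section (open symbols) and as the mean of sections (black line). Slc1a2, Cyp2a5 and Lhpp turn up sharply in the last bin, Cyp27a1, Gls2 and Cps1 change evenly, Aldh1b1 drops early, and mt-Atp8 peaks between the ends.

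A spot's class and its other genes come from the same counts. When each spot was classed from the mean z of its neighbours instead, without its own UMIs, 1250 of the 1515 pericentral calls and 1344 of the 1587 periportal calls were still called in the same direction. The 24 leading genes differed by 2.41 to 3.59 and by -3.36 to -1.82 under that classing. Most spots were shared by both classings. By their own z, 71.5%, 74.5% and 66.2% of the neighbour-classed pericentral spots in sections 2, 3 and 4 were also pericentral. For periportal spots these shares were 75.1%, 72.2% and 69.7%. In spots at or above the median UMIs, where the median mitochondrial share was between 1.96% and 3.92% in all 5 bins, 1140 and 1199 of the calls remained.

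Genes of the Wnt pathway were taken by role, first the ligands. Wnt2, a ligand made by endothelium, lay at 11.4, 9.68 and 10.2 CPM in pericentral and 2.53, 2.12 and 1.86 CPM in periportal sums (2.24 ± 0.15, adjusted p = 7.28e-17). Rspo3, a secreted amplifier of Wnt signalling, lay at 10.9, 7.98 and 10.2 against 2.25, 1.53 and 1.78 CPM (2.37 ± 0.16). Wnt9b was rare, with 15, 18 and 19 UMIs in the pericentral and 0, 3 and 1 in the periportal sums (3.76 ± 0.55). For all 3 the pericentral value was the higher in every section. This held for 1492 of the 1515 genes called higher in pericentral spots. The list of central vein endothelium to which Wnt2, Rspo3 and Wnt9b belong had 8 of 8 members called higher in pericentral spots (background 12.9%). Its median was 2.06, where the median of all genes was 0.00. Its most abundant member, Fabp4, a fatty acid carrier of endothelium and fat cells, lay at 48.2, 44.9 and 46.9 against 22.3, 21.7 and 17.4 CPM. In mixed spots more cells of a type and more RNA per cell cannot be told apart.

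Targets of the pathway in hepatocytes moved the same way. Of 17 tested targets, 15 were called higher in pericentral spots (background 12.9%) and none in periportal spots, with a median of 1.67. The spots were selected on pericentral genes and the list was chosen with earlier results of these data known. The count therefore describes the classes and is no independent evidence of Wnt activity. Axin2, a feedback inhibitor and standard readout of β-catenin activity, lay at 3.92, 4.64 and 4.44 against 0.632, 0.944 and 0.710 CPM (2.47 ± 0.24). Lgr5, the R-spondin receptor, lay at 5.92, 5.17 and 5.58 against 0.913, 0.649 and 0.621 CPM (2.91 ± 0.23). Prodh, proline dehydrogenase, and Cyp27a1, a sterol hydroxylase, differed less, by 0.95 ± 0.038 and 0.72 ± 0.030. The other 2, named after their values were seen, were Ccnd1 (cyclin D1, 7.84, 11.1 and 15.9 against 8.14, 13.5 and 14.6 CPM) and Znrf3 (a ligase that removes Wnt receptors, 3.52, 3.20 and 1.86 against 3.44, 2.60 and 1.51 CPM), and for both the classes lay within the spread of the sections. A transcription factor of another list, Tbx3, which is known as a β-catenin target in liver, lay at 15.1, 15.8 and 13.7 against 2.11, 3.01 and 2.13 CPM (2.60 ± 0.13).

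β-Catenin acts through TCF/LEF factors that bind the letters CTTTGAT or their reverse complement ATCAAAG. The 250 bases before each gene's start were searched for them on both strands in the RefSeq table for GRCm38.p6, which held windows for 9160 of the 11733 tested genes. The match was in 5.63% of 213 windows of genes at least 2-fold higher in pericentral spots, 2.55% of 196 windows of genes at least 2-fold higher in periportal spots and 2.37% of the 11754 windows of all tested genes. In the same order the HNF4A letters CAAAGTCCA were in 1.88%, 1.02% and 0.451%, the C/EBP letters TTGCGCAA in 0.469%, 0% and 0.281%, and the TATA box letters TATANA in 18.3%, 21.9% and 12.4%. Few windows matched in the pericentral and periportal sets, 12 and 5 for TCF/LEF, 4 and 2 for HNF4A and 1 and 0 for C/EBP. The windows of these sets came from 157 of 214 and 149 of 220 genes, and a gene can have more than 1. Such matches are descriptions of the sequence and not shown to be bound. Of the called Wnt targets, 11 had windows, and 2 held the TCF/LEF letters, Slc1a2 and Sp5 (Sp5, itself a transcription factor, 4.002, 4.05 and 1.86 against 0.562, 0.472 and 0.266 CPM, named for its match after its values were seen). Lect2, a secreted hepatocyte protein, lay at 225, 204 and 240.2 against 45.0, 40.3 and 43.6 CPM (2.37 ± 0.041) and held them as well. The stretches around the matches are printed 5′ to 3′ on the gene's strand with the match in capitals. They lie at chr2:102706205-102706263, plus strand for Slc1a2, where the table's start is within the gene as annotated in GENCODE, chr2:70474793-70474851, plus strand for Sp5 and chr13:56548539-56548596, minus strand for Lect2.
Slc1a2: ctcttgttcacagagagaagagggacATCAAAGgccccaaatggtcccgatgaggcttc
Sp5: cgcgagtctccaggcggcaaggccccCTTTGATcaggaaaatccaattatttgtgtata
Lect2: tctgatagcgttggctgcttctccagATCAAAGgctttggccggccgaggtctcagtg

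Drug metabolism leaned to the central end. Of 34 P450s and their partners, 22 were called higher in pericentral and 6 in periportal spots, with a median of 0.51. Cyb5a, cytochrome b5, an electron donor to P450s, lay at 2293, 2011 and 1921 against 1386, 1244 and 1132 CPM (0.73 ± 0.026). Cyp3a11, a main drug-oxidising P450, lay at 3326, 2774 and 1637 against 1748, 1306 and 496 CPM (1.23 ± 0.23) and was not called (adjusted p = 0.084). The pericentral sum exceeded the periportal sum in all 3 sections for Cyp3a11, but the fold was uneven and both levels in section 4 were below those in section 2. It was called without section 4 (1.005) and by DESeq2 (1.24). Nr1i3, the constitutive androstane receptor that switches on drug-metabolising genes, lay at 124, 126 and 99.2 against 45.5, 50.8 and 41.0 CPM (1.35 ± 0.045). Of all 27 listed hepatocyte transcription factors 6 (22.2%) were called higher in pericentral and 5 (18.5%) in periportal spots. The background was 12.9% and 13.5%.

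Enzymes that conjugate drugs to glutathione, sulfate or glucuronate divided between the ends. Of 39, 22 were called higher in pericentral and 8 in periportal spots (median 0.19). Gstm2, a glutathione transferase, lay at 171, 155 and 148 against 42.7, 37.5 and 36.4 CPM (2.02 ± 0.043), and its abundant relative Gstm1 at 2149, 1940.5 and 1898 against 1310.0, 1238 and 1071 CPM (0.73 ± 0.028). Mgst1, the microsomal transferase, differed by only 0.43 ± 0.023. Opposite to them was Ugt2b38, a glucuronosyltransferase, one of the 12 leading periportal genes. In the study's own central list, drawn from its spatial data and so no independent evidence of direction, 20 of 22 tested genes were called higher in pericentral spots. The other 2 were Cyp3a11 and Car3, a carbonic anhydrase named after its values were seen, at 4847, 3449 and 3824 against 2570.1, 1641 and 2597 CPM (adjusted p = 0.0721, called at 0.99 without section 4). Cyp2c29, its widest member, differed by 2.44 ± 0.13. All 8 tested genes of the matching portal list were called higher in periportal spots, among them Gls2, liver glutaminase, at 119, 118 and 105 against 425, 413 and 344 CPM (-1.79 ± 0.034), Hpx, haemopexin (-0.86 ± 0.027), and Serpina12, vaspin (-1.30 ± 0.11).

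Bile acid genes were mostly central. Of 24, 13 were called higher in pericentral and 5 in periportal spots (median 0.19). Cyp7a1, the rate-limiting enzyme of bile acid synthesis, lay at 54.8, 13.6 and 24.1 against 12.8, 2.72 and 4.70 CPM (2.19 ± 0.093, adjusted p = 4.21e-24). Its level differed about as much between sections as between the ends of the axis, so the periportal sum of section 2 nearly reached the pericentral sum of section 3. Within each section the pericentral sum was several times the periportal one. Slco1b2, an uptake transporter for bile acids and drugs, lay at 943, 858 and 799.7 against 313, 299.8 and 252 CPM (1.59 ± 0.030), and Akr1c6, a steroid dehydrogenase, differed by 0.86 ± 0.026.

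Fatty acid oxidation showed small differences in 1 direction. Of 33 genes, 27 were called higher in pericentral spots and 0 in periportal spots, yet the median was 0.26. The large differences were those of Cyp4a14 (2.35 ± 0.094) and Cyp4a10 (2.08 ± 0.052), fatty acid ω-hydroxylases. Cyp4a14 lay at 96.4, 129 and 12.8 against 15.4, 27.3 and 3.99 CPM. Section 4 had far less of it than the others in both classes. Without the section as a block 10 of the 33 genes were called higher in pericentral spots, and with DESeq2 19, where the count over all 11733 genes also went from 1515 to 480 and 682.

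The 12 tested transcripts of the mitochondrial genome gave 8 calls higher in pericentral spots and a median of 0.22. mt-Co3 lay at 10046, 10265 and 7226 against 8806, 9729 and 6004 CPM (0.18 ± 0.027), and mt-Nd4l differed by 0.46 ± 0.063. The median mitochondrial share of the classes, given above, was also higher in pericentral than in periportal spots of each section. In spots at or above the median UMIs none of the 12 was called higher by the same edgeR test, 2 of the 12 were called lower, and the median was -0.03. With spots thinned to 5000 UMIs all 12 were called higher (median 0.28), and with spots classed by neighbours 11 were (0.25). Without spots holding duct or vessel wall UMIs 4 were called higher and 1 lower, and without the section as a block none was called. The result thus depended on the setting.

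Most urea cycle genes were higher in periportal spots. Of 8 tested urea cycle genes, 6 were called higher in periportal and 0 in pericentral spots (background 13.5%, median -0.54). Arg1, arginase, which releases urea, lay at 557, 492 and 439 against 1062, 881 and 781 CPM (-0.87 ± 0.028). Ass1, which joins citrulline and aspartate, lay at 519.7, 649.6 and 479 against 981, 1169.7 and 748 CPM (-0.81 ± 0.048). Cps1, which fixes ammonia in the first step, lay at 1143, 1179.9 and 1138 against 1795, 1923 and 1707 CPM (-0.65 ± 0.026). These 3 differed far less than the leading genes, and the classes of each were apart in every section.

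Amino acid catabolism was mixed, with 24 of 44 genes called higher in periportal and 10 in pericentral spots (median -0.17). Etnppl led the periportal side, followed by Sdsl, a serine dehydratase-like enzyme, at 5.44, 6.15 and 5.78 against 18.3, 22.1 and 22.4 CPM (-1.84 ± 0.10). Gnmt, glycine methyltransferase, differed by -0.43 ± 0.025. Bhmt, which remethylates homocysteine, lay at 3117, 2596 and 3214 against 3627, 2780.0 and 4325 CPM and did not pass (adjusted p = 0.208), although it was called without section 3 (-0.32) or section 4 (-0.16).

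Glucose production followed, with 11 of 19 genes called higher in periportal and 2 in pericentral spots (median -0.25). Pck1, its rate-setting carboxykinase, lay at 748, 801 and 958 against 1270.2, 1663 and 1588 CPM (-0.85 ± 0.094, adjusted p = 0.0249). Ppargc1a, a coactivator of this programme, was scarce and differed by -1.22 ± 0.20. A pooled list of glycolysis and lipid synthesis genes leaned the same way, 14 against 6 of 27. The members named here are genes of lipid synthesis, and glycolysis was not counted apart. Acly, which makes cytosolic acetyl-CoA, lay at 191, 217 and 166 against 409, 392 and 355 CPM (-1.01 ± 0.042), and Scd1, which desaturates fatty acids, at 6993, 7335 and 5725 against 8177, 8624 and 6407 CPM (-0.21 ± 0.023). Elovl3, a fatty acid elongase, differed most of the 6 higher in pericentral spots, at 455, 647 and 750.4 against 129, 212 and 272 CPM (1.62 ± 0.074). Thrsp, a regulator of lipogenesis, was not called (697, 649 and 593 against 934, 743 and 931 CPM, adjusted p = 0.174), but was without section 3 (-0.54) or section 4 (-0.31).

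Of 25 cholesterol synthesis genes, 12 (48%, background 13.5%) were called higher in periportal and 4 (16%, background 12.9%) in pericentral spots, with a median of -0.13. Sqle, squalene epoxidase, lay at 48.6, 40.4 and 59.4 against 86.3, 68.1 and 95.1 CPM (-0.76 ± 0.048). Sc5d, a sterol desaturase, differed by -0.29 ± 0.028, whereas Fdps, farnesyl diphosphate synthase, differed by 0.15 ± 0.032, a call lost without section 3 (0.09). These differences were small beside those of the P450s.

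Secreted plasma proteins, the longest of the lists, leaned to the portal end. Of 69 tested, 50 (72.5%, background 13.5%) were called higher in periportal and 10 (14.5%, background 12.9%) in pericentral spots, with a median of -0.33. Alb, albumin, lay at 36396, 34852 and 34028 CPM in pericentral and 66568, 63624 and 63619 CPM in periportal sums (-0.88 ± 0.020, adjusted p = 1.82e-34), and so was among the most abundant transcripts at both ends. Apoa4, an apolipoprotein, lay at 61.5, 65.5 and 67.0 against 149, 141 and 153 CPM (-1.19 ± 0.042) and Apoc2, an activator of lipoprotein lipase, differed by -1.04 ± 0.075. Apoa2, the second protein of high-density lipoprotein, went the other way at 30778, 28639.8 and 25054 against 28129, 25397 and 23752 CPM (0.13 ± 0.021). The plot of the lists sets these groups side by side.

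**Figure D4:**
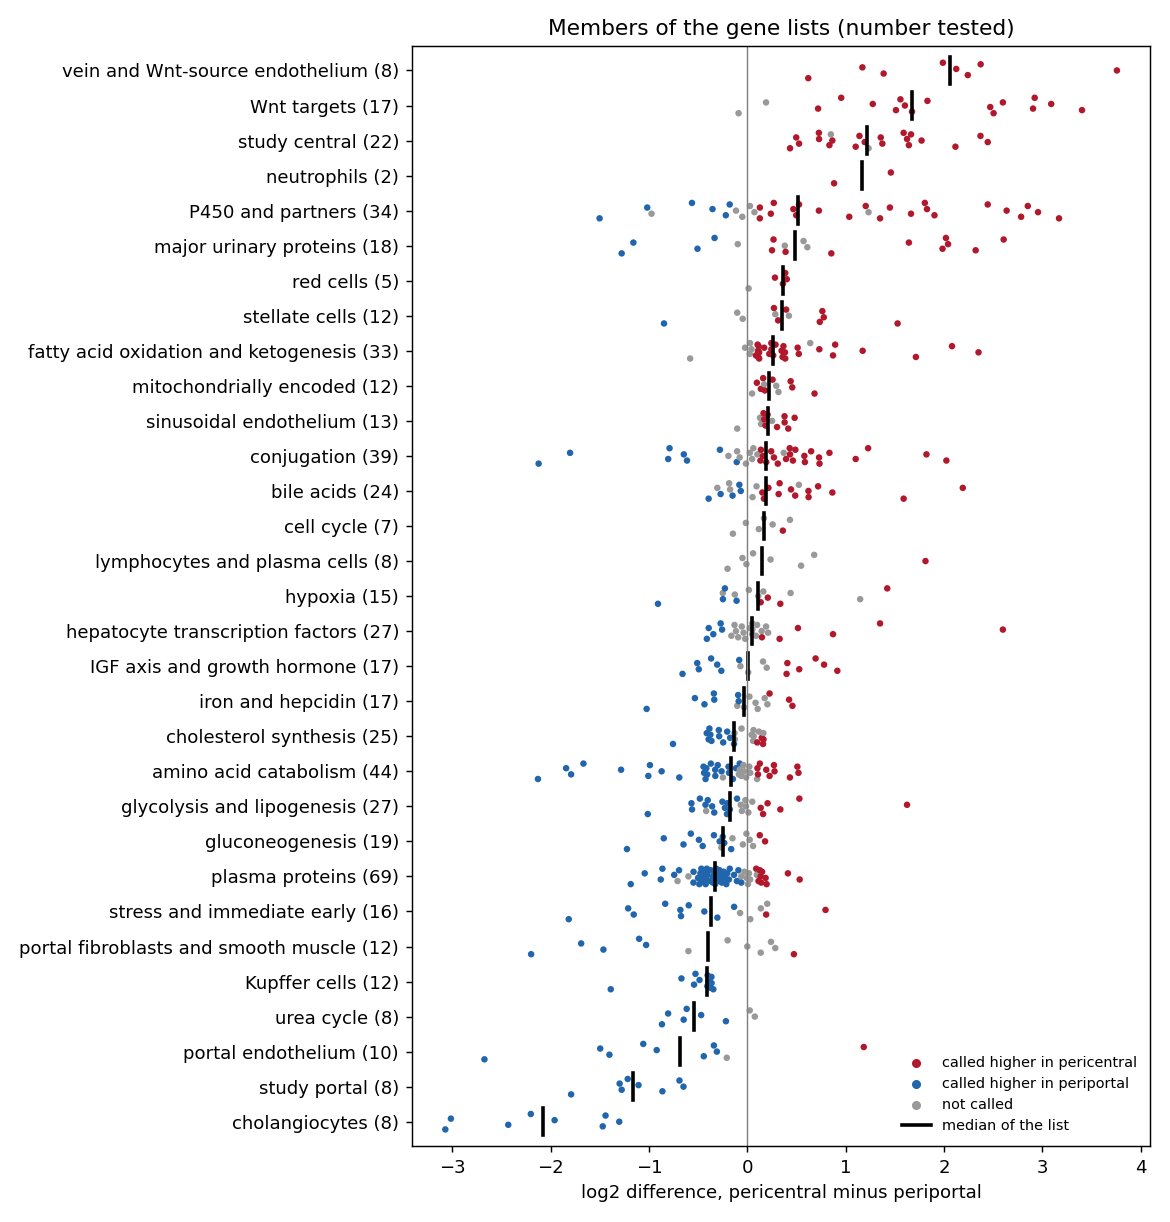
Log2 difference, pericentral minus periportal, of the tested members of each gene list (points, number tested in brackets), coloured by call, with the list's median as a black bar. Central vein endothelium (median 2.06) and Wnt targets (1.67) lie at the top and cholangiocytes (-2.08) at the bottom.

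The major urinary proteins, pheromone carriers that male mouse liver secretes in bulk, split within the family. Together they took 5.19%, 4.498% and 6.91% of all UMIs in pericentral and 5.21%, 4.496% and 6.41% in periportal sums of sections 2, 3 and 4, nearly equal shares. Within the family Mup20, darcin, made up 11.9%, 16.2% and 14.1% of Mup UMIs in pericentral and 28.6%, 34.8% and 36.3% in periportal sums. Of 18 tested members, 10 were called higher in pericentral and 4 in periportal spots. Mup20 lay at 6049, 7051 and 9625 against 15263, 15838 and 24235 CPM (-1.28 ± 0.028, adjusted p = 1.27e-19) and Mup3 at 12919.9, 14206 and 14234 against 19619.7, 19816 and 19290.1 CPM (-0.51 ± 0.025). Against these, Mup17 lay at 4173, 3028 and 8754 against 746, 517 and 1271 CPM (2.61 ± 0.083), Mup9 at 534, 331 and 737 against 109, 71.9 and 133 CPM (2.32 ± 0.039) and Mup11 at 10229, 9189 and 15267 against 3054, 2363 and 6531 CPM (1.64 ± 0.21, adjusted p = 0.0438). Many members are close copies that an aligner can confuse, so the counts of Mup17, Mup9 and Mup11 are uncertain singly. Mup11 was not called without section 2 (1.59) or section 3 (1.48), nor when spots were classed by neighbours (1.56).

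The RefSeq table gives windows before the starts of Mup17, Mup9 and Mup3. Aligned over the 250 bases, Mup17 and Mup9, both higher in pericentral spots, were identical in 93.02% of alignment columns, and Mup17 and Mup3, which were called in opposite directions, in 58.9%. The last 120 bases before the start are printed 5′ to 3′ on the gene's strand, with the TATA box letters TATANA in capitals. They lie at chr4:61595833-61595952, minus strand for Mup17, chr4:60421953-60422072, minus strand for Mup9 and chr4:62087318-62087437, minus strand for Mup3. The annotated starts differ in their distance from the TATA letters.
Mup17: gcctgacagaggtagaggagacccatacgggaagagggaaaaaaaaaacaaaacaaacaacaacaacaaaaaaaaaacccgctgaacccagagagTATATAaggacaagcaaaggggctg
Mup9: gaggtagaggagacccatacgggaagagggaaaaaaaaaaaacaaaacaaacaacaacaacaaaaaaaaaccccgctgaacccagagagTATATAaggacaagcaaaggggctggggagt
Mup3: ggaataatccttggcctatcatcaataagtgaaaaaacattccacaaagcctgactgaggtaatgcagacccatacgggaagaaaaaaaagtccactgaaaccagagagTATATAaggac

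Hormone and iron genes gave both directions. Hamp, hepcidin, the hormone that limits iron release into plasma, lay at 1742, 969.6 and 1171 against 1523, 863 and 939 CPM (0.23 ± 0.028), and its copy Hamp2 at 392, 240.2 and 216 against 283, 192 and 154 CPM (0.42 ± 0.033). Both were called, with differences far below those between sections for Hamp. Trf, transferrin (-0.44 ± 0.023), and Tfrc, the transferrin receptor (-1.02 ± 0.16), were higher in periportal spots. Of the 17 iron genes 3 (17.6%, background 12.9%) were called higher in pericentral and 7 (41.2%, background 13.5%) in periportal spots. Igf1, the growth factor made under growth hormone, lay at 473, 481 and 547 against 693, 688 and 729 CPM (-0.49 ± 0.029) and Igfbp2, which binds it, differed by -0.26 ± 0.031. In contrast Socs2, an inhibitor of growth hormone signalling (0.91 ± 0.089), and Prlr, the prolactin receptor (0.78 ± 0.065), were higher in pericentral spots. Of 17 genes of this axis, 6 and 7 were called in the 2 directions.

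Oxygen falls along the lobule, and 15 hypoxia-responsive genes were therefore examined. Called were 4 higher in pericentral and 4 in periportal spots, with a median of 0.11. Egln3, a prolyl hydroxylase that senses oxygen, lay at 16.8, 14.9 and 12.4 against 7.44, 5.19 and 3.73 CPM (1.42 ± 0.11). Ndrg1 lay at 68.5, 47.3 and 56.2 against 43.9, 16.5 and 18.6 CPM, higher at the central end in each section but not called (adjusted p = 0.144). It was called under 5 of the alternatives, among them DESeq2 (1.25) and the fit without section 2 (1.55). The glycolytic members were close to even, Ldha at 0.14 ± 0.027 and Pgk1 at -0.23 ± 0.030.

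Other cells of the lobule differed as well. All 8 tested bile duct genes were called higher in periportal spots, with a median of -2.08, and Epcam, an adhesion protein of duct cells, lay at 0.400, 0.327 and 0 against 2.67, 2.18 and 2.04 CPM. The summed list took 0.227, 0.259 and 0.314 UMIs per 10000 in pericentral and 1.38, 1.38 and 1.79 in periportal sums. These are marker genes only, and the share of all RNA that came from duct cells was not measured. Spots with any UMI of a duct or vessel wall gene were 74.5%, 71.2% and 69.1% of periportal and 62.6%, 58.7% and 51.5% of pericentral spots. Without those spots 828 and 874 of the pericentral and periportal calls remained, among 10129 genes tested, and the 11 of the 12 leading periportal genes that could be tested differed by -2.32 to -1.69. Spp1 could not, since it helped to define those spots.

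Endothelium of the portal side had 8 of 10 genes called higher in periportal spots. Adgrg6, an adhesion receptor, lay at 0.400, 0.458 and 0.103 against 2.60, 2.07 and 2.13 CPM, Ntn4, a netrin, at 3.52, 1.90 and 2.07 against 8.70, 6.55 and 5.59 CPM, and the abundant Clu, clusterin, which hepatocytes also make, differed by -0.31 ± 0.026. One member went against the list's name, Vwf, von Willebrand factor, named after its values were seen, at 9.13, 7.85 and 8.57 against 3.58, 3.60 and 4.08 CPM (1.18 ± 0.14). Sinusoidal endothelium gave 9 of 13 called higher in pericentral spots at a median of 0.21. Its scavenger receptor Stab2 lay at 46.3, 51.1 and 52.5 against 31.7, 36.9 and 39.1 CPM (0.48 ± 0.055), and Oit3 differed by 0.42 ± 0.064.

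Transcripts of Kupffer cells, the resident macrophages, were higher in periportal than in pericentral spots, and their summed level was highest in the spots between. All 12 tested genes were called higher in periportal spots, with a median of -0.41. Marco, a scavenger receptor for bacteria, lay at 7.44, 5.10 and 8.26 against 17.4, 15.1 and 21.7 CPM (-1.39 ± 0.10) and Cd163, which takes up haemoglobin, differed by -0.67 ± 0.11. More abundant members differed less, Clec4f at 86.1, 89.3 and 92.2 against 116, 129.97 and 141 CPM (-0.53 ± 0.041) and the complement gene C1qb by -0.38 ± 0.040. The summed list took 5.44, 5.55 and 5.97 UMIs per 10000 in pericentral, 6.59, 7.69 and 7.85 in periportal and 7.69, 8.59 and 8.49 in the spots between, so the ends differed less from each other than the central end did from the middle. The spots between were also shallower, with a higher mitochondrial share. This summed level was not examined in deeper spots, and the part of depth in it was not tested.

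Stellate cells, which store vitamin A, tended to the central end with 7 of 12 genes called there and 1 at the portal end. Dcn, decorin, lay at 208, 185 and 222 against 129, 111 and 121 CPM (0.76 ± 0.036) and Lhx2, a stellate transcription factor, at 4.16, 3.53 and 4.34 against 1.40, 1.53 and 1.07 CPM (1.53 ± 0.22). Ngfr, a neurotrophin receptor, was the periportal member at 1.20, 1.57 and 2.27 against 2.39, 2.72 and 3.99 CPM (-0.85 ± 0.22). Of 12 portal fibroblast and smooth muscle genes 5 were higher in periportal spots, among them Mfap4 (-2.20 ± 0.51) and Myh11, smooth muscle myosin (-1.69 ± 0.41), all rare, while the collagen Col3a1 was higher in pericentral spots at 21.7, 20.1 and 23.1 against 16.1, 14.2 and 16.6 CPM (0.47 ± 0.080).

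Of 8 lymphocyte and plasma cell genes, 1 was called. Ighm, the heavy chain of IgM, lay at 10.3, 12.49 and 14.97 CPM in pericentral and 2.88, 3.66 and 4.17 CPM in periportal sums (1.81 ± 0.13, adjusted p = 3.70e-16), clearly apart in each section. Both tested neutrophil genes, S100a8 (0.560, 3.79 and 2.17 against 0.281, 1.59 and 0.355 CPM) and S100a9 (0.800, 2.35 and 2.68 against 0.632, 1.36 and 1.07 CPM), were called higher in pericentral spots on few UMIs. Classed by neighbours, neither was called, and S100a9 was not called without section 3 (0.97) or section 4 (0.67). Of the 5 red cell genes, 4 were called higher in pericentral spots, and none of the 5 without section 3 or with DESeq2. Section 3 held far more red cell RNA than the other sections, with 12.02 UMIs per 10000 in pericentral and 8.86 in periportal spots against 0.887 to 1.12 in the classes of sections 2 and 4. Stress and immediate early genes were periportal, 10 of 16 against 2. Jun lay at 15.8, 11.2 and 8.98 against 43.7, 22.9 and 17.3 CPM (-1.21 ± 0.088) and Fos at 0.400, 0.392 and 0.310 against 1.83, 1.003 and 1.24 CPM (-1.82 ± 0.40), both transcription factors of the immediate response. The abundant chaperones were near even, with Hspa8 at -0.13 ± 0.029 (-0.09 and not called without section 3) and Hsp90aa1 at 0.19 ± 0.041. Of 7 tested cell cycle genes 1 was called (14.3%, near the background of 12.9%). It was Stmn1, which binds tubulin and was lower in the pericentral sum of section 3 (8.48, 6.47 and 7.33 against 5.48, 6.55 and 4.88 CPM, not called without section 2 or section 4 at 0.21 and 0.28). Its call was also lost with DESeq2, without the block, with classing by neighbours and with thinning (0.09). The same held in spots at or above the median UMIs, with classes of 10% or 33% and without duct or vessel wall spots. No mesothelium gene passed the filter.

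Genes that peak or dip between the ends would escape a comparison of the ends. The middle bin of z was therefore set against the mean of bins 1 and 5 in 1 fit over the 15 sums of section and bin, on 11902 genes. A gene called in this way need not be highest or lowest in the middle bin. Called higher in the middle were 830 genes (6.97%) and lower 558 (4.69%), so 59.8% of calls were higher, against 23.3% with libraries scaled to their totals alone. The spots of the middle bin were also the shallowest or nearly so, with medians of 20519, 15463 and 14958 UMIs, and had the highest median mitochondrial share, 10.4%, 10.4% and 7.78%. Among the largest positive contrasts were a transcript of the mitochondrial ATP synthase and haemoglobins of red cells. mt-Atp8 had 34.2, 91.1, 131, 109 and 55.1 CPM in bins 1 to 5 (1.59 ± 0.12), and Hba-a1 had 66.6, 109.7, 206, 148 and 89.9 CPM (1.49 ± 0.20). Hba-a2 (1.43), Hbb-bt (1.40), Hbb-bs (1.31) and the predicted gene Gm42418 (1.41) were the others. Without section 2 the contrasts of Hba-a1 (1.42) and Hbb-bs (1.24) were not called.

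When bins were rebuilt from spots at or above the median UMIs, with similar depth and mitochondrial share in all 5 bins, 428 genes were higher and 205 lower in the middle, and 316 of the 830 and 145 of the 558 first calls remained. The haemoglobin contrasts were then 0.14 (Hba-a1), 0.12 (Hba-a2), 0.15 (Hbb-bt) and 0.10 (Hbb-bs), none of them called, and mt-Atp8 stood at 0.46 and was still called. The part of depth in the remaining contrasts was not tested.

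The most negative contrasts were those of genes of an end whose level rose late. The middle is set against the mean of both ends on the log2 scale, so these contrasts are negative without a dip. Slc1a2 had a contrast of -0.74 ± 0.079, Cyp2a5 of -0.62 ± 0.070 and Lhpp of -0.47 ± 0.080. Fabp4 had 20.01, 23.0, 21.1, 25.4 and 45.6 CPM over the bins (-0.54) and Cyp4a12b, a fatty acid hydroxylase, 32.0, 33.6, 32.6, 39.1 and 64.4 CPM (-0.48). Both were nearly flat over 4 bins and higher in the last. Aldh1b1 (-0.47) was the mirror image at the portal end. In the deeper spots these contrasts were -1.12, -0.88, -0.67, -0.85, -0.65 and -0.45, all called. With spots thinned to 5000 UMIs 4 of the 6 were not called, Cyp2a5 at -0.30, Fabp4 at -0.21, Cyp4a12b at -0.32 and Lhpp at -0.41. Cyp2a5 was not called either with spots classed by their neighbours (-0.37) or without the section as a block (-0.60).

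Whole-section levels after APAP are given beside these as a description, since the 0 h sections are the same and mouse and time cannot be separated. Slc1a2 averaged 41.8 CPM over the 3 sections at 0 h and 0.251, 0.489 and 0.699 CPM at 24, 36 and 48 h, and Mup17 2895, 277, 53.6 and 22.3 CPM. Neither came near its 0 h level in any later section. Lgr5 averaged 2.71, 0.171, 0.475 and 1.45 CPM and Axin2 2.52, 0.520, 0.861 and 2.69 CPM, so that Axin2 at 48 h lay between 2.20 and 3.20 CPM and overlapped its 0 h range of 2.29 to 2.80. Cyp2a5 averaged 92.4, 447, 147 and 43.9 CPM. Its highest levels were at 24 h. Of the periportal genes, Spp1 averaged 57.3, 116, 113 and 304 CPM, and Cps1 1905, 635, 1601 and 2002 CPM. Mup20, the periportal urinary protein, averaged 16029.6, 3222, 3847 and 5108 CPM.

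**Figure D5:**
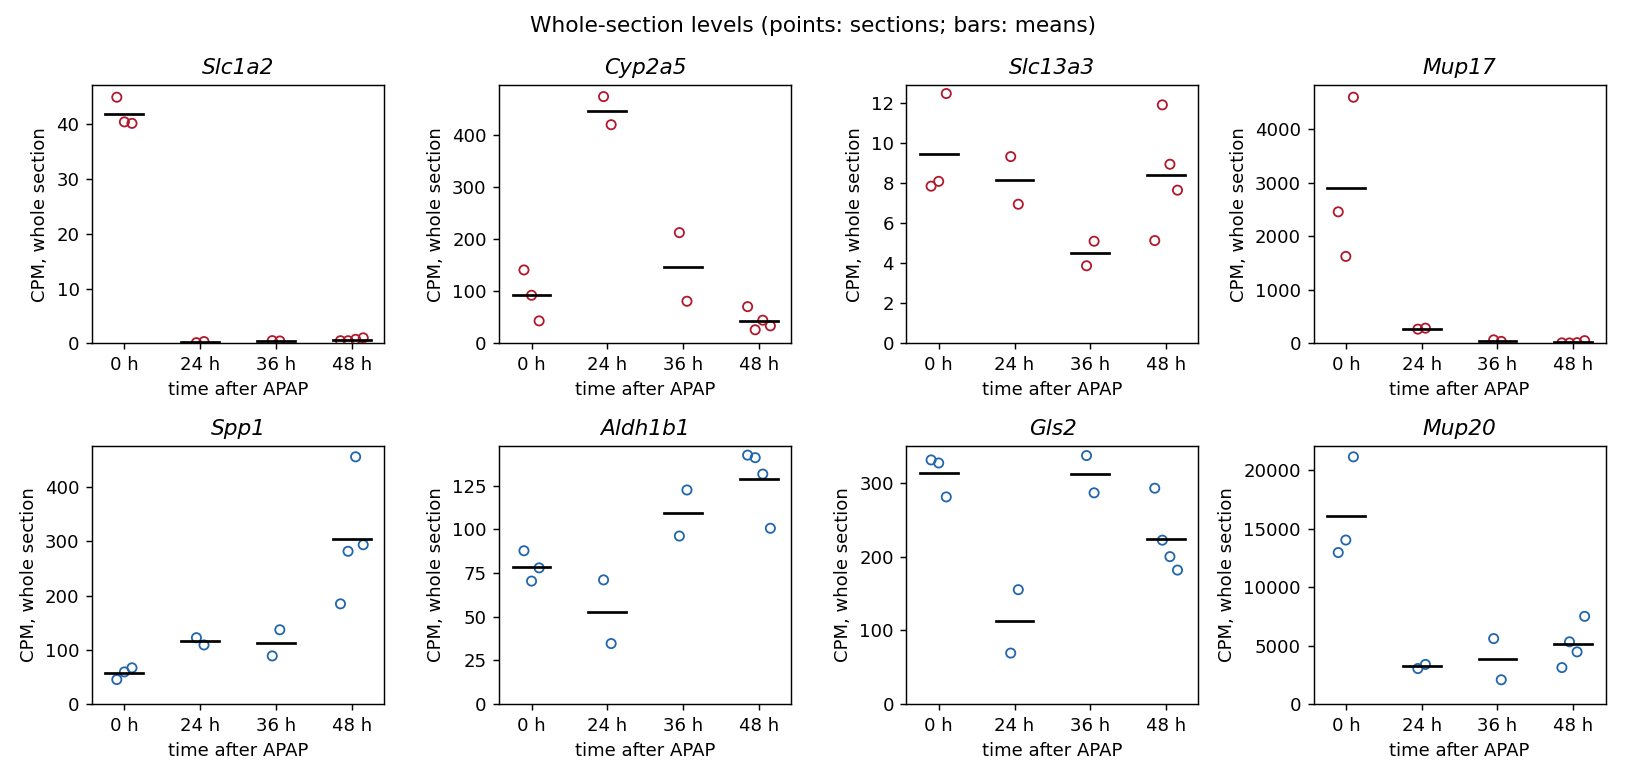
Whole-section CPM of 4 pericentral genes (red) and 4 periportal genes (blue) at 0, 24, 36 and 48 h after APAP, 1 point per section, with the mean as a bar. Slc1a2 and Mup17 are low at every later time, whereas Slc13a3 at 48 h overlaps its 0 h range. Cyp2a5 is highest at 24 h and Spp1 at 48 h.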

How the data were processed

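Spatial gene expression was measured on 11 mouse liver sections, of which 3 at 0 h entered every test. Per the labels the authors processed the reads with Space Ranger 1.0.0 against mm10, and the deposited values are raw UMI counts for 31053 genes and 4992 barcodes per section, with no spot filter. Seurat 4.1.1 is also listed in the submitters' processing notes. Tissue mask and array positions came from the position files. UMI counts were summed per section and class and tested with edgeR 4.0.16 in R 4.3.3 (filterByExpr, TMM, robust quasi-likelihood fit, section as block, two-sided, Benjamini-Hochberg adjustment over all genes tested). The pericentral and periportal sums of a section come from the same tissue, which is the reason for the block. Doublets do not apply to spots, and overlapping or antisense genes cannot be told apart where counting merged them. The same steps were tested on simulated data. Genes were named by a rule: per direction the 12 largest called differences with at least 20 CPM in the higher class and all 3 sections alike, without predicted and clone names, the 6 largest middle contrasts per direction, up to 4 members per list (the widest and the most abundant), and Wnt2, Wnt9b, Rspo3, Axin2, Lgr5, Hamp, Hamp2, Igfbp2, Mup20 and Mup11 whatever their values. A few genes that the rule names are not reported here. Genes outside it are marked as chosen after their values were seen. The members and the gene lists were chosen with earlier results of these data known. Alternatives were RLE and total-count scaling, DESeq2 1.42.0, no low-count filter, no block, each section left out, classing by neighbours, thinning to 5000 UMIs per spot, no spot filter, classes of 10% and 33%, leaving out spots with duct or vessel wall UMIs and, chosen after seeing the data, spots at or above the median UMIs. Promoter windows came from RefSeq on GRCm38.p6 and gene positions from GENCODE M21 on GRCm38. Counting error is small at these depths for abundant genes and limits genes below about 1 CPM.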

Additional observations from a re-analysis of the deposited data

How the results depend on the processing

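The median of all genes stayed within 0.01 of 0 under each alternative but total-count scaling, at 0.07 for the ends and -0.07 for the middle. Genes called higher in pericentral and in periportal spots were 682 and 722 with DESeq2, 622 and 608 with spots thinned to 5000 UMIs (8462 genes tested) and 891 and 935 without spots holding duct or vessel wall UMIs (10129 tested). With total-count scaling 2386 genes were called higher in pericentral spots. Leaving out 1 section gave 1068 to 1390 and 1142 to 1453. Genes called in the middle bin were 1388, and 2105 with total-count scaling, 708 with DESeq2, 629 with classing by neighbours, 499 after thinning, 633 in spots at or above the median UMIs and 868 to 1027 without 1 section, the lowest without section 3 and 920 without section 2. In the middle, 23.3% of calls were higher with total-count scaling against 59.8% in the reported fit. Some of these settings also held fewer genes or sections, and the causes of the shifts were not tested.

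The sums of a section were paired by the section they came from. Without the replicate block 480 and 514 genes were called at the ends and 91 in the middle, and of the 117 genes named for the ends 38 lost their call, Cyp2a5, Mup17, Mup20 and Cyp7a1 among them, while Thrsp gained one.

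Of those 117 genes, 110 were called. No called gene changed direction when a section was left out or the scaling changed. In spots at or above the median UMIs mt-Atp8 turned to -0.13, and Znrf3, not called, to -0.0066. S100a9 turned to -0.50 when classed by neighbours and to -0.15 with classes of 33%. Without duct or vessel wall spots Znrf3 stood at -0.0073 and Ccnd1 at 0.026, and with 1 section left out Ccnd1 ranged from -0.20 to 0.047, the highest without section 3. None of these turned values was called.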
